A study of Mus musculus with 9 samples.

Results

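The insulin-like growth factor (IGF) system was followed through mammary adipose stromal cells of nulliparous, lactating and involuting mice. Its members were chosen by name and comprise 2 ligands (Igf1 and Igf2), 2 receptors (Igf1r and Igf2r) and 6 binding proteins (Igfbp2 to Igfbp7). All 10 were measured, each by 1 probe set, among 19930 genes in all. RNA was hybridized to 9 Affymetrix Mouse Gene 1.0 ST arrays, which read each gene with probes along its transcript. The 3 stages were adipose stromal cells of female Balb/c mice that were nulliparous at 8 weeks of age (ASC-Ns), at day 5 of lactation (ASC-Ls) or at day 3 of involution (ASC-Is), with 3 arrays each. By the study's methods, the mice of the last 2 stages were mated at 8 weeks of age, so they were older than the nulliparous mice. Stage and age cannot be told apart in the comparisons with ASC-Ns. No group carried a transgene, a deletion or a drug treatment. The study's methods describe low passage cultures from the fourth inguinal fat pads of several mice, whereas the labels describe stroma separated by enzyme digestion and centrifugation, and no source used here states which mice stand behind each array. P-values therefore measure the spread between these preparations.

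The IGF ligands are secreted growth factors. Igf1 acts through the receptor tyrosine kinase Igf1r, which signals through insulin receptor substrates to PI3-kinase and Akt, while Igf2r is a mannose-6-phosphate receptor that takes up Igf2 and leads it to lysosomes. The binding proteins hold the ligands outside the cell, prolong their life and control their access to the receptor, and proteases such as the pappalysins release the ligand again. In the mammary gland, stromal Igf1 is known as a local mediator of growth hormone in ductal growth, and Igfbp5 is known from rodents as a secreted protein of the involuting epithelium.

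Promoter windows are shown for Igf1, Igfbp4 and Igfbp6, the members whose stage means lay farthest apart, and this choice was made after their values were seen. Each window runs from 250 bases before to 50 bases after an annotated start in RefSeq (GRCm38.p6). The Igf1 window is chr10:87860861-87861160 on the plus strand, the Igfbp4 window is chr11:99040994-99041293 on the plus strand and the Igfbp6 window is chr15:102143936-102144235 on the plus strand. Those of Igf1 and Igfbp4 lie inside the annotated gene, downstream of its first base, whereas that of Igfbp6 surrounds the first base of the gene. Capitals mark matches to the TATA box (TATAAA) or the CCAAT box (CCAAT) on either strand.
Igf1: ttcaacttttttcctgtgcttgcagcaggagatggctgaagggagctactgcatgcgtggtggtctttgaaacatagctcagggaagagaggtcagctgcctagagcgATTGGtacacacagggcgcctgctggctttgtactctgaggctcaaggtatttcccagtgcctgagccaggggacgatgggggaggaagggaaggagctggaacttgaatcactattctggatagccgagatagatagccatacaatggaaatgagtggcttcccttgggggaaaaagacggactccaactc
Igfbp4: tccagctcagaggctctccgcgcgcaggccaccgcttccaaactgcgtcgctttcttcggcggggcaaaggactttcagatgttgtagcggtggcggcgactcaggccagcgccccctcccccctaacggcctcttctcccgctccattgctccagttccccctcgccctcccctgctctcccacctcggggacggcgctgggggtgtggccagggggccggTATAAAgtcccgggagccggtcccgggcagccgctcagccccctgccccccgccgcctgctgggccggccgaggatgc
Igfbp6: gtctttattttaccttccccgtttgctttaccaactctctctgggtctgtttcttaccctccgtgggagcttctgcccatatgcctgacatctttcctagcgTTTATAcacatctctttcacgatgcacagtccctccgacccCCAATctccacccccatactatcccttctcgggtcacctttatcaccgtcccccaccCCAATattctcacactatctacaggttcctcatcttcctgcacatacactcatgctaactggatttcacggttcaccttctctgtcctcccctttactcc
The Igf1 window held a CCAAT box at position -142 from the start, read on the opposite strand. The Igfbp4 window held a TATA box at -28. The Igfbp6 window held CCAAT boxes at -107 and -50 and a TATA box on the opposite strand at -148. Over all 14 windows of the members, a TATA box was found in 2, a CCAAT box in 3 and a GC box (GGGCGG) in 6, while 13.6%, 37.4% and 35.7% of 32851 mouse promoter windows of the same length held them. The Stat motif TTCNNNGAA, with N for any base, was found in 0 of the 14 windows and in 8.30% of all windows. These matches describe letters only.

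Array medians of log2 signal lay between 5.93 and 6.0 over all probe sets, and between 6.22 and 6.29 over the genes analysed. The mean of 12 measured stromal and fibroblast markers was above the median on every array, at 9.61 to 10.8, and that of 9 mature adipocyte markers stayed near it, at 6.05 to 6.33. Replicate 2 of the ASC-Ls and replicate 2 of the ASC-Is stood apart by epithelial markers. The mean of 14 luminal markers was 9.16 and 7.79 on these arrays and 5.73 to 7.0 on the other 7, and that of 10 basal markers was 8.78 and 7.13 against 5.20 to 5.99. Milk genes averaged 6.37 and 5.68 on these arrays against 5.01 to 5.23. Endothelial markers averaged 7.25 and 6.66 on them against 5.21 to 6.88, where 6.88 was ASC-N replicate 1. Macrophage markers (15 genes) averaged 5.95 to 7.71 in ASC-Ns, 6.26 to 6.45 in ASC-Ls and 6.80 to 8.47 in ASC-Is. In such bulk RNA, fewer cells of a type and less RNA per cell cannot be told apart.

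No member passed the threshold in any comparison of stages in the fit of all 9 arrays without a replicate block. The threshold was an unadjusted p under 0.05 in limma with at least a 1.5-fold difference. It was met by 0 of 10 members and 0.627% of all genes in ASC-Ls against ASC-Ns, by 0 of 10 and 0.482% in ASC-Ls against ASC-Is, and by 0 of 10 and 0.251% in ASC-Is against ASC-Ns. At an adjusted p under 0.05 there were 0 genes in any comparison, against 726, 359 and 311 genes at an unadjusted p under 0.05. A difference of 1.5-fold or more was seen for 3, 3 and 1 members in the same order, and for 2.84%, 2.07% and 1.15% of genes, but none of these member differences passed the p limit. The median difference of the members was -0.11, -0.04 and -0.19 log2, beside 0.01, 0.01 and 0.00 over all genes.

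**Figure D1:**
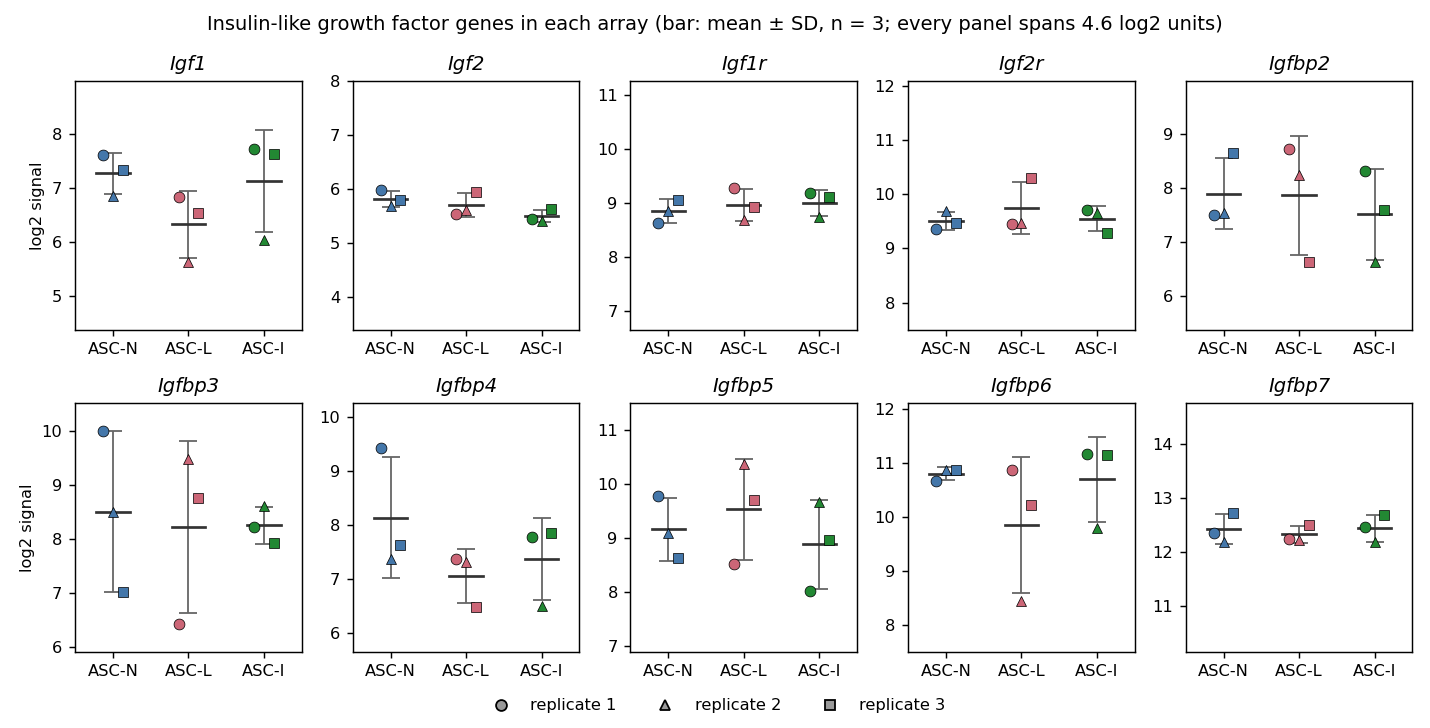
Log2 signal of the 10 members on each of the 9 arrays (vertical axis, every panel spanning the same width) by stage, where bars give the mean ± SD of 3 arrays and a marker shape for each replicate number. Igf1 arrays of ASC-Ls lie between 5.62 and 6.82, below all ASC-N arrays at 6.85 to 7.61, whereas Igf1r, Igf2 and Igfbp7 span less than 0.65 log2 over the arrays and Igfbp3 spreads widely within ASC-Ns and ASC-Ls.

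Of the ligands, Igf1 had its lowest mean in ASC-Ls. Its log2 signal was 7.61, 6.85 and 7.33 in ASC-Ns, 6.82, 5.62 and 6.52 in ASC-Ls, and 7.72, 6.02 and 7.62 in ASC-Is. All 3 ASC-L arrays were below all ASC-N arrays, although the gap between the nearest pair was narrow, while ASC-I replicate 2 lay among the ASC-Ls. The mean of Igf1 in ASC-Ls was 1.92-fold below that of ASC-Ns (log2 difference -0.94, SE 0.47, 95% interval -2.01 to 0.13, limma adjusted p = 0.998). Arrays were apart, in either direction, for 1 of 10 members and 8.59% of all genes. Against ASC-Is it was 1.74-fold lower (-0.80, SE 0.47, interval -1.87 to 0.27), and ASC-Is and ASC-Ns did not differ beyond their spread (-0.14, interval -1.21 to 0.93). The order of the means was thus ASC-L, ASC-I and ASC-N, with no neighbors separated by the test.

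Same-numbered arrays of ASC-Ls and ASC-Is deviated together across genes, but no label says what the number marks. A block by this number is thus drawn from the same values. It also takes up the shared deviation of replicate 2, the arrays of high epithelial signal. With the number as a block, the difference of Igf1 between ASC-Ls and ASC-Is kept its size and passed the threshold (-0.80, SE 0.20, limma adjusted p = 0.996), as 1 of 10 members, among 207 genes (1.04%) in place of 96. Igf1 was lower in ASC-Ls in 3 of 3 same-numbered pairs, by -0.90, -0.40 and -1.10 log2. Igf2, Igfbp5 and Igfbp6 also kept their sign in 3 of 3 of these pairs. How many of all genes did so was not counted. With the block in the ASC-L and ASC-I arrays alone, a fit added after the data were seen, 3 of 10 members (Igf1, Igfbp5 and Igfbp6) and 1.47% of all genes passed the threshold, with Igf1 at an SE of 0.16 (limma adjusted p = 0.744). No member passed in either of these fits at an adjusted p under 0.05. Without blocking, leaving out 1 array at a time moved the Igf1 difference from ASC-Is between -1.35 (without ASC-I replicate 2) and -0.45 (without ASC-L replicate 2), and that from ASC-Ns between -1.19 and -0.59.

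**Figure D2:**
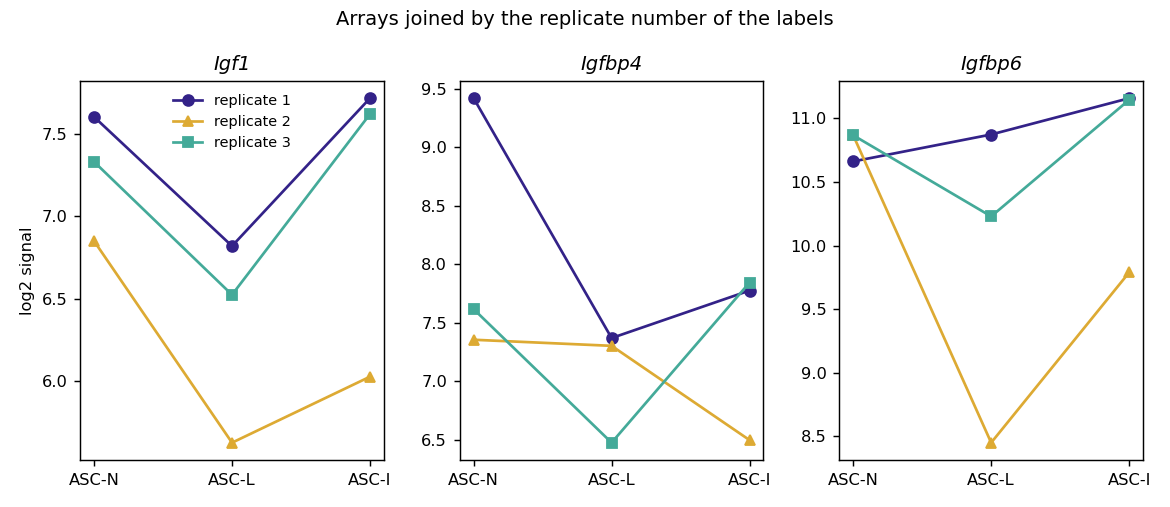
Log2 signal (vertical axis) of Igf1, Igfbp4 and Igfbp6 at the 3 stages, with lines joining arrays of the same replicate number. Igf1 is lower in ASC-L than at both other stages on each line, while the lines of Igfbp4 and Igfbp6 cross.

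Igf1 was lowest on the arrays of high epithelial signal, at 5.62 on ASC-L replicate 2 and 6.02 on ASC-I replicate 2. Values on the other arrays were mixed. ASC-N replicates 1 and 2 had close luminal means, yet their Igf1 was 7.61 and 6.85. ASC-L replicates 1 and 3 had luminal means of 6.02 and 6.20. Their Igf1, 6.82 and 6.52, was below that of every ASC-N array, by a narrow gap for the nearest pair (6.82 and 6.85). ASC-I replicates 1 and 3 had luminal means of 5.88 and 5.73 and the highest Igf1, 7.72 and 7.62. Without ASC-L and ASC-I replicate 2, Igf1 passed the threshold in ASC-Ls, at -0.591 log2 against ASC-Ns (SE 0.23, limma adjusted p = 0.878). Against ASC-Is it was at -1.0 (SE 0.25, limma adjusted p = 1.000). The first value lies close to the fold limit of 0.585 log2. Leaving out the lowest Igf1 arrays also narrows the spread of Igf1 within stages, and 2 ASC-L arrays remain. The part of epithelial RNA in the Igf1 difference was not tested. The threshold was then met by 1 of 10 members and 0.773% of all genes in ASC-Ls against ASC-Ns, and by 2 of 10 (Igf1 and Igfbp6) and 0.973% in ASC-Ls against ASC-Is. This exclusion was chosen after the data were seen, and the arrays left out were also high in milk genes and endothelial markers. Macrophages are also known to make Igf1. Of their 15 markers, 9 fell past the threshold in ASC-Ls against ASC-Is in the fit of all 9 arrays, beside 0.482% of all genes. Against ASC-Ns, 14 of 15 were lower in ASC-Ls, with a median of -0.69 log2 beside 0.01 over all genes. In that comparison 1 marker and 0.627% of all genes passed the threshold. ASC-I replicate 2 had both the lowest macrophage mean of the ASC-Is, 6.80, and the lowest Igf1 of the ASC-Is, 6.02, and ASC-N replicate 3 had the lowest macrophage mean of all arrays, 5.95, with an Igf1 signal of 7.33. The part of macrophages in the Igf1 difference was not tested.

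Igf2, the fetal ligand, had an even signal below the median of the genes on each array. It was 5.98, 5.68 and 5.79 in ASC-Ns, 5.53, 5.62 and 5.95 in ASC-Ls and 5.44, 5.42 and 5.62 in ASC-Is. Every ASC-I array was below every ASC-N array, with ASC-Ls between and overlapping both. The difference between ASC-Is and ASC-Ns was 1.25-fold (-0.32, SE 0.14, interval -0.65 to 0.00, limma adjusted p = 1.000), under the fold limit. Arrays were apart for 1 of 10 members and 6.54% of all genes in this comparison, and for 0 of 10 members and 5.56% of genes in ASC-Ls against ASC-Is.

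The receptors showed no difference between stages beyond the spread of their arrays. Igf1r, the signaling receptor, was 8.64, 8.86 and 9.07 in ASC-Ns, 9.29, 8.69 and 8.92 in ASC-Ls and 9.19, 8.74 and 9.11 in ASC-Is. The stages overlapped throughout. Its differences were 0.11 log2 in ASC-Ls against ASC-Ns (interval -0.33 to 0.55), -0.05 in ASC-Ls against ASC-Is (-0.48 to 0.39) and 0.16 in ASC-Is against ASC-Ns (-0.28 to 0.59), so that a difference above 1.51-fold lay outside all 3 intervals. Igf2r, the scavenger receptor, was 9.36, 9.70 and 9.48 in ASC-Ns, 9.45, 9.48 and 10.30 in ASC-Ls and 9.71, 9.65 and 9.29 in ASC-Is. One ASC-L array, replicate 3, stood above the rest. The Igf2r differences were 0.24 (interval -0.30 to 0.77), 0.19 (-0.34 to 0.73) and 0.04 (-0.49 to 0.57) in the same order.

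**Figure D3:**
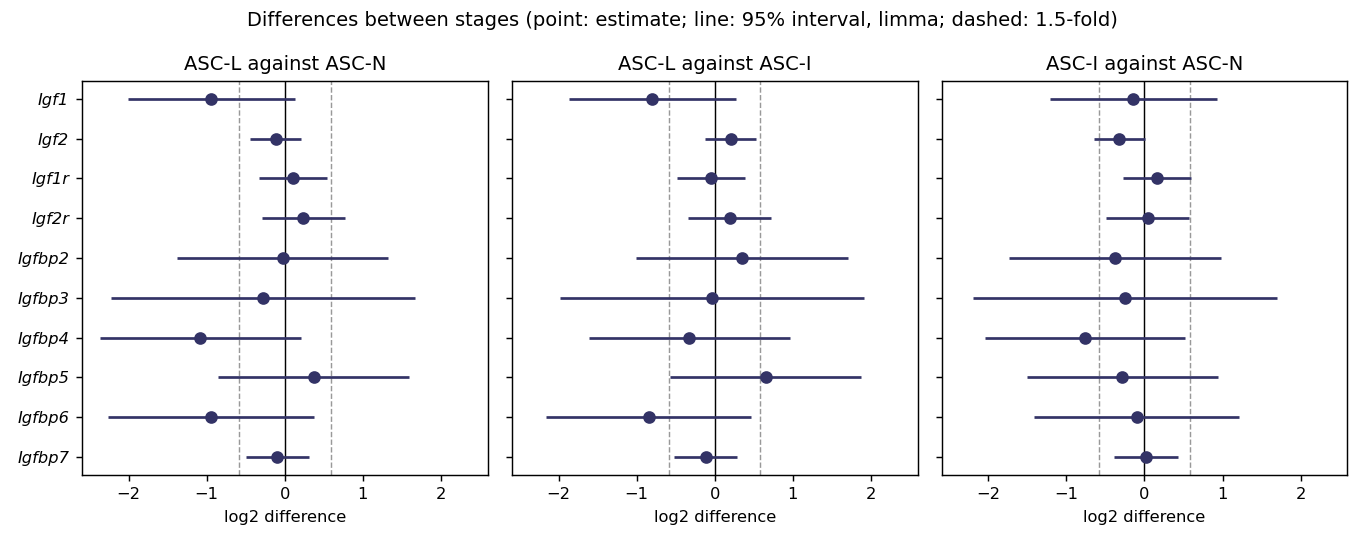
Log2 differences between stages (horizontal axis) for each member, with the estimate as a point, the 95% interval of limma as a line and 1.5-fold as dashed lines. The lowest points are Igfbp4, Igfbp6 and Igf1 in ASC-Ls against ASC-Ns at -1.08, -0.95 and -0.94, and every line reaches 0.

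Igfbp4, a binding protein that mainly inhibits IGF action and is cleaved by Pappa, had the widest spacing of stage means, which rested on 1 array. Its signal was 9.42, 7.36 and 7.62 in ASC-Ns, 7.37, 7.30 and 6.48 in ASC-Ls and 7.78, 6.50 and 7.84 in ASC-Is. ASC-N replicate 1 lay far above all other arrays, and the remaining arrays of the 3 stages overlapped. The ASC-L mean of Igfbp4 was 2.12-fold below the ASC-N mean (-1.08, SE 0.57, interval -2.36 to 0.20, limma adjusted p = 0.998) and the ASC-I mean 1.69-fold below it (-0.76, SE 0.57, interval -2.04 to 0.52). ASC-Ls and ASC-Is lay closer (-0.32, SE 0.57, interval -1.61 to 0.96). Without ASC-N replicate 1 the differences from ASC-Ns were -0.44 for ASC-Ls and -0.11 for ASC-Is, while Igf1 and Igfbp6 in ASC-Ls were at -0.77 and -1.02 against ASC-Ns, so that Igfbp4 no longer had the widest spacing.

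Igfbp6, which binds Igf2 in preference to Igf1, was even in ASC-Ns and uneven in the other stages. It was 10.66, 10.87 and 10.87 in ASC-Ns, 10.87, 8.45 and 10.23 in ASC-Ls and 11.16, 9.79 and 11.14 in ASC-Is. The low values were again those of ASC-L and ASC-I replicate 2, the arrays with high epithelial markers. The stromal marker mean was also lowest on ASC-L replicate 2, at 9.61. The threshold was met by 1 of the 12 stromal markers and 0.627% of all genes in ASC-Ls against ASC-Ns. The marker was Pdgfra, a receptor of mesenchymal cells, which fell (-1.22, SE 0.51, limma adjusted p = 0.998), with 8.86 on that array. On ASC-I replicates 1 and 2, however, the stromal marker means were 10.07 and 10.08, while Igfbp6 was 11.16 and 9.79. The ASC-L mean of Igfbp6 was 1.93-fold below the ASC-N mean (-0.95, SE 0.58, interval -2.26 to 0.37) and 1.80-fold below the ASC-I mean (-0.85, SE 0.58, interval -2.16 to 0.47). Without both epithelial arrays these differences were -0.25 (SE 0.20) and -0.60 (SE 0.22, limma adjusted p = 1.000). Without ASC-L replicate 2 alone they were -0.25 (SE 0.40) and -0.15 (SE 0.40). In same-numbered pairs Igfbp6 was lower in ASC-Ls than ASC-Is in 3 of 3, by -0.28, -1.34 and -0.92, and with the block in these 6 arrays alone it passed the threshold (SE 0.21, limma adjusted p = 0.859). The part of epithelial RNA in the values of Igfbp6 was not tested.

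Igfbp5, a binding protein that attaches to extracellular matrix, took the opposite position on the same arrays. It was 9.79, 9.10 and 8.63 in ASC-Ns, 8.53, 10.38 and 9.71 in ASC-Ls and 8.02, 9.67 and 8.98 in ASC-Is. ASC-L replicate 2 was the highest array, ASC-I replicate 1 was the lowest, and the stages overlapped. The mean was highest in ASC-Ls and lowest in ASC-Is (0.65 log2, SE 0.54, interval -0.57 to 1.88), and no neighboring stages differed beyond their spread in this fit. Within the same-numbered pairs of ASC-Ls and ASC-Is, however, Igfbp5 was higher in ASC-Ls in 3 of 3, by 0.51, 0.71 and 0.74. So was Igf2, by 0.09, 0.20 and 0.33, and the share of all genes alike in 3 of 3 pairs was not counted. With the block in these 6 arrays alone Igfbp5 passed the threshold (0.65, SE 0.12, limma adjusted p = 0.560). With the block over all 9 arrays it did not (SE 0.47, limma adjusted p = 0.996). The differences from ASC-Ns were 0.37 for ASC-Ls (interval -0.86 to 1.59) and -0.28 for ASC-Is (interval -1.51 to 0.94).

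Igfbp2 and Igfbp3 varied between preparations more than between stages. Igfbp2, which lies next to Igfbp5 on chromosome 1, was 7.50, 7.53 and 8.64 in ASC-Ns, 8.72, 8.24 and 6.63 in ASC-Ls and 8.30, 6.63 and 7.60 in ASC-Is. Each stage held a high and a low array. Its differences were -0.03 in ASC-Ls against ASC-Ns (interval -1.38 to 1.33), 0.35 in ASC-Ls against ASC-Is (-1.0 to 1.71) and -0.38 in ASC-Is against ASC-Ns (-1.73 to 0.97). Igfbp3, the main carrier of IGFs in serum, was 9.99, 8.50 and 7.01 in ASC-Ns, 6.43, 9.48 and 8.75 in ASC-Ls and 8.21, 8.62 and 7.93 in ASC-Is. Its ASC-N and ASC-L arrays each spread over most of the range of the series, and the ASC-Is lay in the middle of it. The differences were -0.28 (interval -2.22 to 1.67), -0.03 (-1.98 to 1.92) and -0.25 (-2.19 to 1.7) in the same order, which leave differences of several fold in either direction possible.

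Igfbp7, a secreted protein of low affinity for IGFs, was steady across the arrays. It was 12.35, 12.19 and 12.72 in ASC-Ns, 12.24, 12.23 and 12.50 in ASC-Ls and 12.46, 12.18 and 12.68 in ASC-Is. All 3 stages overlapped, and replicate 3 was the highest array in each. The differences were -0.10 (interval -0.50 to 0.31), -0.12 (-0.52 to 0.29) and 0.02 (-0.39 to 0.42). Differences beyond 1.42-, 1.44- and 1.342-fold thus lay outside the intervals.

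The spread between arrays of the same stage separated the members into 2 sets. The within-stage SD was 1.27 log2 for Igfbp3, 0.88 for Igfbp2, 0.86 for Igfbp6, 0.83 for Igfbp4, 0.80 for Igfbp5 and 0.69 for Igf1, and these 6 members were each more variable than 93.6% or more of the genes with above-median signal, whose median SD was 0.22. The remaining 4 were Igf2r at 0.32, Igf1r at 0.25, Igfbp7 at 0.23 and Igf2 at 0.17, above 73.0%, 60.1%, 54.3% and 32.4% of those genes. Igf2 itself was not among those genes, since its mean signal was below the median. Thus 5 of 6 binding proteins fell in the more variable set, and the receptors were less variable than these but not less variable than most genes.

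**Figure D4:**
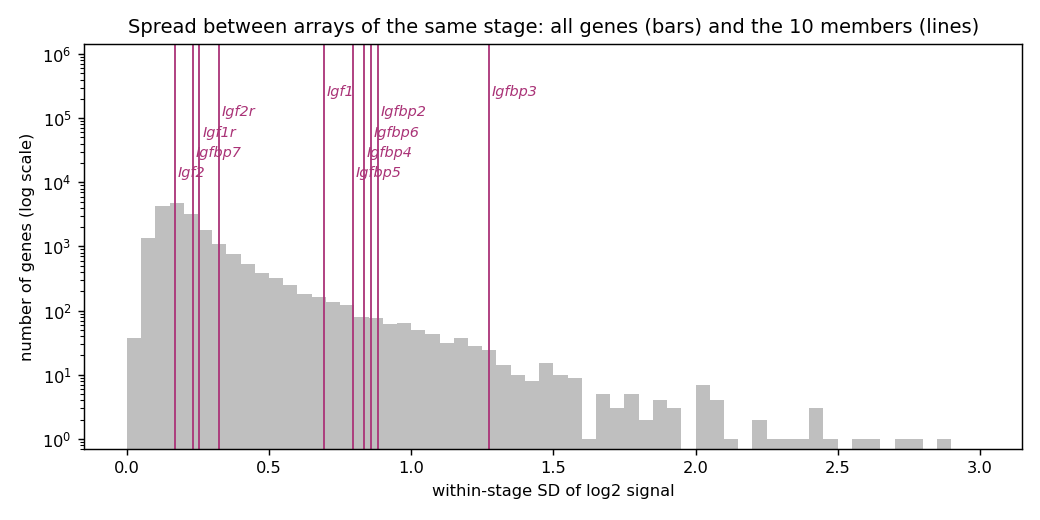
Number of genes (vertical axis, log scale) by the within-stage SD of log2 signal (horizontal axis), with lines for the 10 members. Igf2, Igfbp7, Igf1r and Igf2r lie at 0.17 to 0.32 within the bulk of genes, and Igf1, Igfbp2, Igfbp3, Igfbp4, Igfbp5 and Igfbp6 lie at 0.69 to 1.27 in its upper tail.

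The 6 more variable members did not follow a single array. ASC-N replicate 1 was highest for both Igfbp3 and Igfbp4, and also held the highest endothelial marker mean of the ASC-Ns, 6.88 against 5.37 and 5.21. ASC-L replicate 1 was lowest for Igfbp3 and highest for Igfbp2. ASC-L replicate 2 was lowest for Igf1 and Igfbp6 and highest for Igfbp5, beside its high epithelial and endothelial means of 9.16 (luminal) and 7.25. The part of these cell types in the members' values was not tested.

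**Figure D5:**
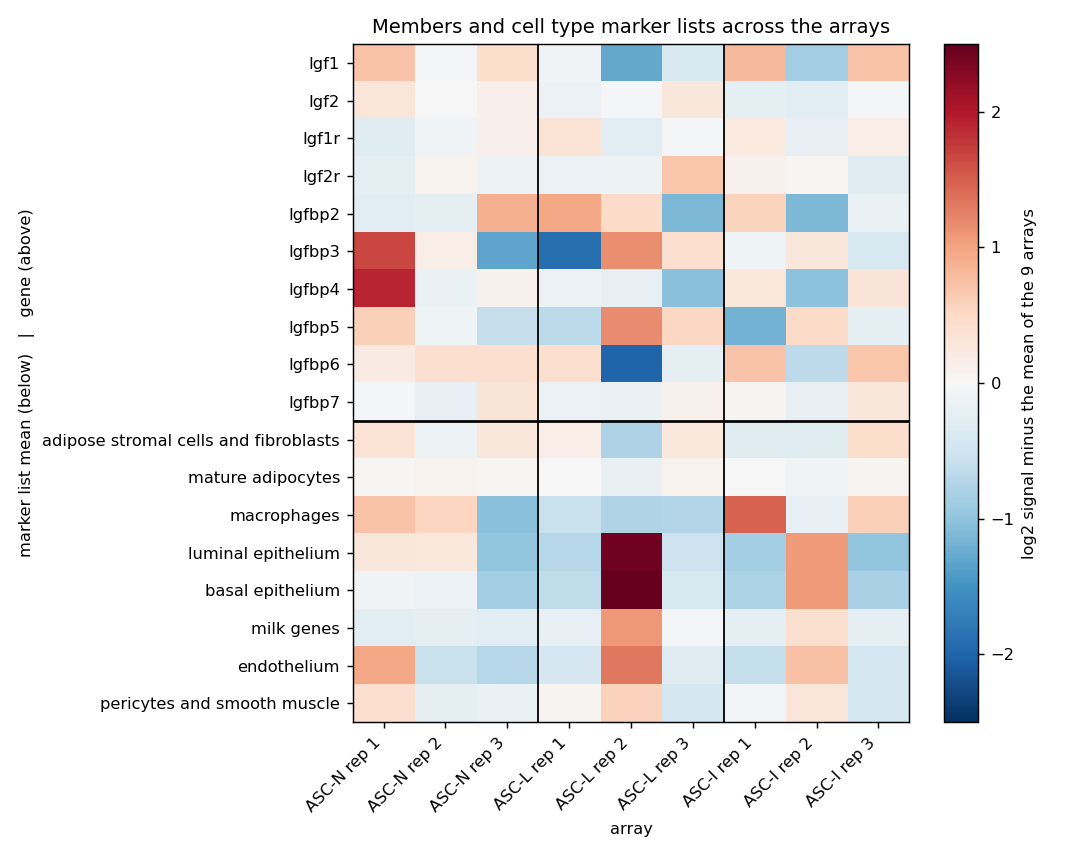
Log2 signal of each member (upper rows) and mean of each cell type marker list (lower rows) on the 9 arrays, as the deviation from the mean of the 9 arrays (color). ASC-L replicate 2 is high in luminal (9.16) and basal (8.78) markers and low in Igf1 (5.62) and Igfbp6 (8.45).

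Around the members, single genes in some of the pathway lists passed the threshold. Over all genes it was met by 0.627% in ASC-Ls against ASC-Ns, 0.482% in ASC-Ls against ASC-Is and 0.251% in ASC-Is against ASC-Ns. Of 9 proteases of the binding proteins and their inhibitors, 1 rose and 0 fell in ASC-Ls against ASC-Ns, 0 moved in ASC-Ls against ASC-Is, and 0 rose and 1 fell in ASC-Is against ASC-Ns. Stc2, a stanniocalcin that inhibits pappalysins, rose in ASC-Ls, with 7.83, 7.62 and 8.55 against 7.53, 6.97 and 7.33 in ASC-Ns (0.73, SE 0.27, limma adjusted p = 0.998), and the arrays did not overlap. Adam12, a metalloprotease known to cleave Igfbp3 and Igfbp5, fell in ASC-Is, with 8.76, 9.23 and 8.98 against 9.71, 10.08 and 9.43 in ASC-Ns (-0.75, SE 0.19, limma adjusted p = 1.000). Those arrays did not overlap either. Arrays were apart for 8.59% of all genes in ASC-Ls against ASC-Ns and for 6.54% in ASC-Is against ASC-Ns.

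Of 10 measured other ligands and binding proteins of the insulin family, 1 fell in ASC-Ls against ASC-Ns and 0 moved otherwise. It was Kazald1, a secreted protein related to the binding proteins, with 6.43, 5.5 and 5.96 against 6.72, 6.64 and 6.54 in ASC-Ns (-0.67, SE 0.28, limma adjusted p = 0.998). Of 19 measured genes of PI3-kinase, Akt, mTOR and Foxo, 1 fell in ASC-Ls against ASC-Ns and 0 moved otherwise. It was Pik3r3, a regulatory subunit of PI3-kinase, with 7.05, 7.41 and 6.48 against 7.88, 7.69 and 7.19 in ASC-Ns (-0.61, SE 0.25, limma adjusted p = 0.998), where the arrays overlapped.

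In 3 further lists 0 genes passed in any comparison, namely 14 genes of the insulin receptor and its adaptors, 8 genes of growth hormone and prolactin signaling, and 8 Igf2 mRNA-binding proteins and imprinted growth genes. Irs1, an adaptor of Igf1r and the insulin receptor, was 5.46, 6.08 and 5.49 in ASC-Is against 6.14, 6.21 and 5.71 in ASC-Ns. Cish, a feedback gene of Stat5, was 6.48, 6.14 and 6.33 in ASC-Is against 5.73, 5.81 and 6.17 in ASC-Ns (0.42, SE 0.15), under the fold limit. Mest, an imprinted gene of mesenchyme, spread from 4.82 to 8.61 within ASC-Ns alone. Each of the 3 lists also held a gene with a larger difference, and these were differences of ASC-Ls. Grb14, of the insulin receptor list, differed from ASC-Is by -0.61 log2 (SE 0.58). Socs3, of the growth hormone list, did so by -0.51 (SE 0.27). Igf2bp3, of the Igf2 mRNA-binding list, differed from ASC-Ns by -0.54 (SE 0.25). The arrays of these genes overlapped, and none passed the p limit. The medians of these lists lay between -0.18 and 0.12 log2 in the 3 comparisons.

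No member passed the threshold in that fit without a block, so genes of similar pattern were sought for Igfbp4, whose stage means lay farthest apart. Among 9956 genes of above-median signal, the closest over the 9 arrays were Pan2, a subunit of a poly(A) nuclease (Pearson r = 0.96, Spearman rho = 0.85), Ccnl2, a cyclin linked to splicing (r = 0.93, rho = 0.90), and Zfp644, a zinc finger protein (r = 0.93, rho = 0.87). Without ASC-N replicate 1 and ASC-L replicate 3, the arrays farthest from the median of Igfbp4, r was 0.81, 0.81 and 0.87. These genes were ranked on the same arrays, so no p-value is given.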

How the data were processed

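The members, gene lists and tests were chosen with earlier results of these data known. The authors deposited log2 values of 28348 probe sets. The study's methods name robust multi-array average for them, whereas the submitters' processing notes list GCRMA and limma without versions. The values are normalized between arrays and were used without further normalization. Probe sets with exactly 1 symbol in the array's annotation (21762) were averaged per gene, and 21671 of these matched the RefSeq table of GRCm38.p6 names. Ins1, Insl3, Igf2bp2, H19, Prlr, Rps6kb1, Ly6a, Fbn1, Cfd and Lalba, among other listed genes, were not analysed here.

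All 9 arrays entered 1 model in limma 3.58.1 (R 4.3.3), which had a mean per stage, empirical Bayes moderation and 6 residual degrees of freedom. P-values were adjusted by the Benjamini-Hochberg method over 19930 genes. The threshold, an unadjusted p under 0.05 with at least 1.5-fold, is the one that the genes listed by the study meet. The fit was tested on simulated data. Members were all named, other genes of the pathway by the largest change past the threshold in each list, or by values only where none passed, and similar genes by Pearson r. Exact permutation tests cannot go below 0.10 with 3 against 3 arrays and were not used. The number of arrays limits the precision.

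Deviations of same-numbered arrays from their stage means correlated in each pair of ASC-L and ASC-I arrays (r = 0.47, 0.73 and 0.46). One pair fell short for ASC-L with ASC-N arrays (r = -0.08, 0.40 and 0.45), as for ASC-I with ASC-N arrays (r = 0.07, 0.43 and 0.50). The labels do not say what the number marks, so the pairing comes from the values. The deviations of a stage cancel over its arrays, so a shared deviation of replicate 2 can raise r for the other numbers as well. The r values are thus not independent signs of pairing. Alternatives were quantile normalization, cyclic loess, an intensity trend with a robust prior, array weights, only the stages compared, filters on low signal and low SD, probe sets in place of genes, a replicate block, and the omission of each array in turn. The exclusion of both arrays of high epithelial signal and the block in ASC-L and ASC-I arrays alone were added after seeing the data.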

Additional observations from a re-analysis of the deposited data

How the results depend on the processing

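Of 580 member differences under 20 alternatives, 519 kept their direction and side of the threshold, 17 passed the threshold and 44 changed sign, and 0 members or genes reached an adjusted p under 0.05, the smallest for a member being 0.559. Sign changes touched 18 of the 30 differences. Those of Igf1, Igfbp4 and Igfbp6 in ASC-Ls kept their sign but not their size. The cause of these shifts was not tested.

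With the replicate block, 2 members passed in ASC-Ls against ASC-Ns (Igf1 at -0.94 and Igfbp4 at -1.08, both with an adjusted p of 0.754) and 1 in ASC-Ls against ASC-Is, and the gene counts of the 3 comparisons were 295, 207 and 90 in place of 125, 96 and 50. With the block in ASC-Ls and ASC-Is alone, 3 members (Igf1, Igfbp5 and Igfbp6) and 293 genes passed. The blocks changed no other member's call. With array weights 1 member (Igfbp4) passed in ASC-Ls against ASC-Ns, with 311 genes, and 187 genes passed in ASC-Is against ASC-Ns. With only the stages compared, 1 member (Igf1) passed in ASC-Ls against ASC-Ns, with 140 genes. Without both arrays of high epithelial signal, 1 member (Igf1) passed in ASC-Ls against ASC-Ns, with 154 genes, and 2 (Igf1 and Igfbp6) in ASC-Ls against ASC-Is, with 194 genes there and 144 in ASC-Is against ASC-Ns.

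Signs changed for Igfbp2 in ASC-Ls against ASC-Ns with quantile normalization (0.018), cyclic loess (0.023) and array weights (0.11), and for Igfbp7 in ASC-Is against ASC-Ns with quantile normalization (-0.073) and cyclic loess (-0.0090). Array weights gave -0.14 for Igfbp5 in ASC-Ls against ASC-Ns, and 0.025 for Igfbp2 and 0.12 for Igfbp6 in ASC-Is against ASC-Ns. Without both epithelial arrays the values were -0.050 for Igfbp5 in ASC-Ls against ASC-Ns, -0.27 for Igfbp2 in ASC-Ls against ASC-Is, and 0.41 for Igf1, -0.0081 for Igf2r, 0.060 for Igfbp2 and 0.35 for Igfbp6 in ASC-Is against ASC-Ns.

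Leaving out 1 array gave 0 to 1 members and 80 (without ASC-N replicate 1) to 404 genes (without ASC-L replicate 1) in ASC-Ls against ASC-Ns, 0 to 2 members and 36 (without ASC-I replicate 1) to 331 genes (without ASC-L replicate 1) in ASC-Ls against ASC-Is, and 0 members and 32 (without ASC-N replicate 1) to 221 genes (without ASC-N replicate 3) in ASC-Is against ASC-Ns. Igfbp4 passed in ASC-Ls against ASC-Ns without ASC-N replicate 2, Igfbp6 in both comparisons of ASC-Ls and Igfbp5 against ASC-Is without ASC-L replicate 1, and Igf1 in both without ASC-I replicate 2. In ASC-Ls against ASC-Ns the ranges that crossed 0 were -0.051 to 0.25 for Igf1r, -0.044 to 0.38 for Igf2r, -0.46 to 0.59 for Igfbp2, -1.02 to 0.62 for Igfbp3, -0.050 to 0.87 for Igfbp5 and -0.21 to 0.055 for Igfbp7. In ASC-Ls against ASC-Is they were -0.21 to 0.092 for Igf1r, -0.085 to 0.34 for Igf2r, -0.087 to 0.97 for Igfbp2, -0.66 to 0.87 for Igfbp3 and -0.24 to 0.0023 for Igfbp7. In ASC-Is against ASC-Ns they were -0.44 to 0.41 for Igf1, -0.040 to 0.17 for Igf2r, -0.78 to 0.060 for Igfbp2, -0.99 to 0.50 for Igfbp3, -0.67 to 0.15 for Igfbp5, -0.33 to 0.35 for Igfbp6 and -0.099 to 0.17 for Igfbp7. For differences that kept their sign, the ranges in ASC-Ls were -1.47 to -0.44 for Igfbp4 and -1.46 to -0.25 for Igfbp6 against ASC-Ns, and -1.35 to -0.45 for Igf1, -0.76 to -0.036 for Igfbp4, 0.22 to 1.16 for Igfbp5 and -1.36 to -0.15 for Igfbp6 against ASC-Is.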
